A study of Mus musculus with 6 samples.

Results

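The antiviral interferon-stimulated genes considered here are 45 genes of splenic mouse monocytes, chosen by gene symbol from the 46072 gene identifiers of the expression tables, and all 45 passed the expression filter that left 16138 identifiers for testing. They comprise 3 IFIT genes, 6 OAS genes, 2 MX genes, 4 genes of the ISG15 system, 8 RNA sensors and their partners, 4 interferon receptor genes, 4 PARP and DTX3L genes, 4 nucleotide and RNA enzymes, 2 nuclear body genes, 4 schlafen genes and large helicases or ligases, and 4 further genes. Messenger RNA was measured in unstimulated monocytes taken from the spleen by negative magnetic selection, so that the cells were obtained by removing other cells. The Con group held 3 female C57BL/6 mice, 8 to 10 weeks old, that were gavaged with water, and the Van group held 3 such mice that were gavaged with vancomycin at 2 mg per day. Gavage lasted 6 days in both groups, and each mouse gave 1 library. The antibiotic-free rest that came after gavage is 6 to 8 days in the sample labels, and 8 days in the paper. Its statement on data availability points to a different deposit for the RNA sequencing, so that the match between these libraries and its groups rests on the treatment alone, and details taken from the paper may not hold for them. The comparison asked how the monocytes of Van mice differed from those of Con mice once the antibiotic had been withdrawn. Libraries are called Con 1 to Con 3 and Van 1 to Van 3, and values for the libraries of a group are given in that order.

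Type I interferons bind a receptor made of IFNAR1 and IFNAR2, and the kinases attached to it activate transcription factors, among them STAT2 with IRF9, that bind a promoter element called the interferon-stimulated response element. The genes so induced encode proteins that sense viral RNA, block translation, degrade RNA or alter other proteins, and many of them are transcribed at a low tonic level without infection. Interferon gamma acts through a separate receptor, made of IFNGR1 and IFNGR2. Monocytes express these genes readily, and in C57BL/6 mice the Mx1 gene is known to carry a deletion that removes the antiviral activity of its protein.

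Promoter sequences of a few members are shown because the response element is the feature that links the list to its inducer. In the 250 bases before each RefSeq transcription start (GRCm38.p6), the core of the response element was searched as GAAA, any 2 bases and GAAA again, on both strands and with overlapping matches allowed. Of the 45 members, 36 had a promoter sequence, and 9 of those 36 (25.0%) held a match, against 936 of all 27025 symbols with a sequence (3.46%). The 9 were Ifit1, Ifit3, Oas1a, Oas1g, Oas3, Isg15, Rsad2, Slfn5 and Slfn8. The sequences below run 5′ to 3′ on the strand of the gene, with the matches in capitals. The Ifit3 and Ifit1 windows each held 2 separate matches, Isg15 held 3 that overlap, Rsad2 held 1, and Pml, the member with the smallest adjusted p in the comparison of the groups, held none.
Ifit3 (chr19:34583279-34583528, plus strand): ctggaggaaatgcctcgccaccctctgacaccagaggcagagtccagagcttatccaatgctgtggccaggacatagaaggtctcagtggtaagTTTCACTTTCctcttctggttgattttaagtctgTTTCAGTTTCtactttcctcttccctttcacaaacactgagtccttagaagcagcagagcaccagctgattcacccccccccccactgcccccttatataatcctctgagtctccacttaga
Ifit1 (chr19:34640639-34640888, plus strand): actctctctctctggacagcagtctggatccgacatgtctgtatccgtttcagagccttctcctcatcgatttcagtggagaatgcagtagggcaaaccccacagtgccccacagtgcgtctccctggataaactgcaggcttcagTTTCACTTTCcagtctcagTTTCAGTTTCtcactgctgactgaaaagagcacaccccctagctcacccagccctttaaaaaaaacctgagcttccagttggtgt
Isg15 (chr4:156200819-156201068, minus strand): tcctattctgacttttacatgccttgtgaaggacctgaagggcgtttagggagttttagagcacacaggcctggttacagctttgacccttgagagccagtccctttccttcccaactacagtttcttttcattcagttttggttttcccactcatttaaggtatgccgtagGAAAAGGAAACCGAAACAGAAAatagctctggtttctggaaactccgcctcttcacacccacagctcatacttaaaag
Rsad2 (chr12:26456453-26456702, minus strand): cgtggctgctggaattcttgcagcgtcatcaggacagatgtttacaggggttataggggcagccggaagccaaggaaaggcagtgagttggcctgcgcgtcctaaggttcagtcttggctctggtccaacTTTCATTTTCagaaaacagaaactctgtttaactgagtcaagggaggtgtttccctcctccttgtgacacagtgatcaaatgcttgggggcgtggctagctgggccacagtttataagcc
Pml (chr9:58249787-58250036, minus strand): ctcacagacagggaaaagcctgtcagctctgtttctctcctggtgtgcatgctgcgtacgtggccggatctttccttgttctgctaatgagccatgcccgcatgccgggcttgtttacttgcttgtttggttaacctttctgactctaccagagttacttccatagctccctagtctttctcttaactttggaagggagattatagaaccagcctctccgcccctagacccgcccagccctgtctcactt
The Ifit3 matches began 156 and 122 bases before the start, those of Ifit1 104 and 85 bases before it, that of Rsad2 120 bases before it, and those of Isg15 78, 72 and 66 bases before it. All 9 members with a match had a log2 fold change below 0 in Van, with a median of -0.22, and 1 of them (Ifit3) was called. Of the 27 members with a sequence but no match, 20 were below 0, with a median of -0.16, and 4 were called, where 2.00% of all genes tested were called. Those 27 include all 4 interferon receptor genes, which were all above 0. The 353 tested genes of the whole table with a match had a median of -0.035. A match is a run of letters and not a measured binding site.

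Across the 45 members, the Van group was lower than the Con group for most genes and by small amounts. A log2 fold change below 0 was found for 38 members and above 0 for 7, with a median of -0.19, against a median of -0.0014 over all genes tested and 50.4% of them below 0. The members were chosen with earlier results of these data known, so the shares of all genes given here describe the list and do not test it. Genes were called where the adjusted p was 0.05 or less in edgeR's quasi-likelihood test, with p-values adjusted by Benjamini-Hochberg over all genes tested. By this rule 6 members were called, and all 6 fell in Van: Ifit2, Ifit3, Oasl2, Mx1, Ifih1 and Pml. Of all genes tested, 2.00% were called, 0.917% as lower and 1.08% as higher. At an unadjusted p under 0.05, 22 members were lower and 1 was higher, where 8.14% of all genes were lower and 8.37% higher. For 23 members every Van library lay below every Con library, for 3 (Mavs, Ifnar1 and Ifngr1) every Van library lay above, and for 19 the groups overlapped. The corresponding shares of all genes were 11.0% below and 11.5% above. DESeq2's Wald test, the test that the study used, called 14 members, of which 13 fell and Mavs rose, where it called 6.40% of all genes and 3.18% as lower.

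The shift was seen in each library of the Van group. Relative to each member's mean of log2(CPM + 0.5) (CPM, estimated counts divided by the TMM-scaled library size, so that libraries compare) in Con, the median of the 45 members was -0.063, 0.031 and 0.011 in Con 1, Con 2 and Con 3. It was -0.21, -0.14 and -0.17 in Van 1, Van 2 and Van 3, and the spread between replicates, taken as the SD over libraries of the members' median deviation from their own group means, was 0.0403. Between 36 and 41 of the 45 members lay below their Con mean in each Van library, against 32 in Con 1, 21 in Con 2 and 19 in Con 3. The median SE of a member's log2 fold change was 0.079, against 0.13 over all genes tested. With 3 mice against 3, an exact two-sided permutation test of a single gene cannot go below p = 0.10, which is what each of the genes without overlap reached. In bulk RNA, fewer cells of a kind and less RNA per cell cannot be told apart.

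**Figure D1:**
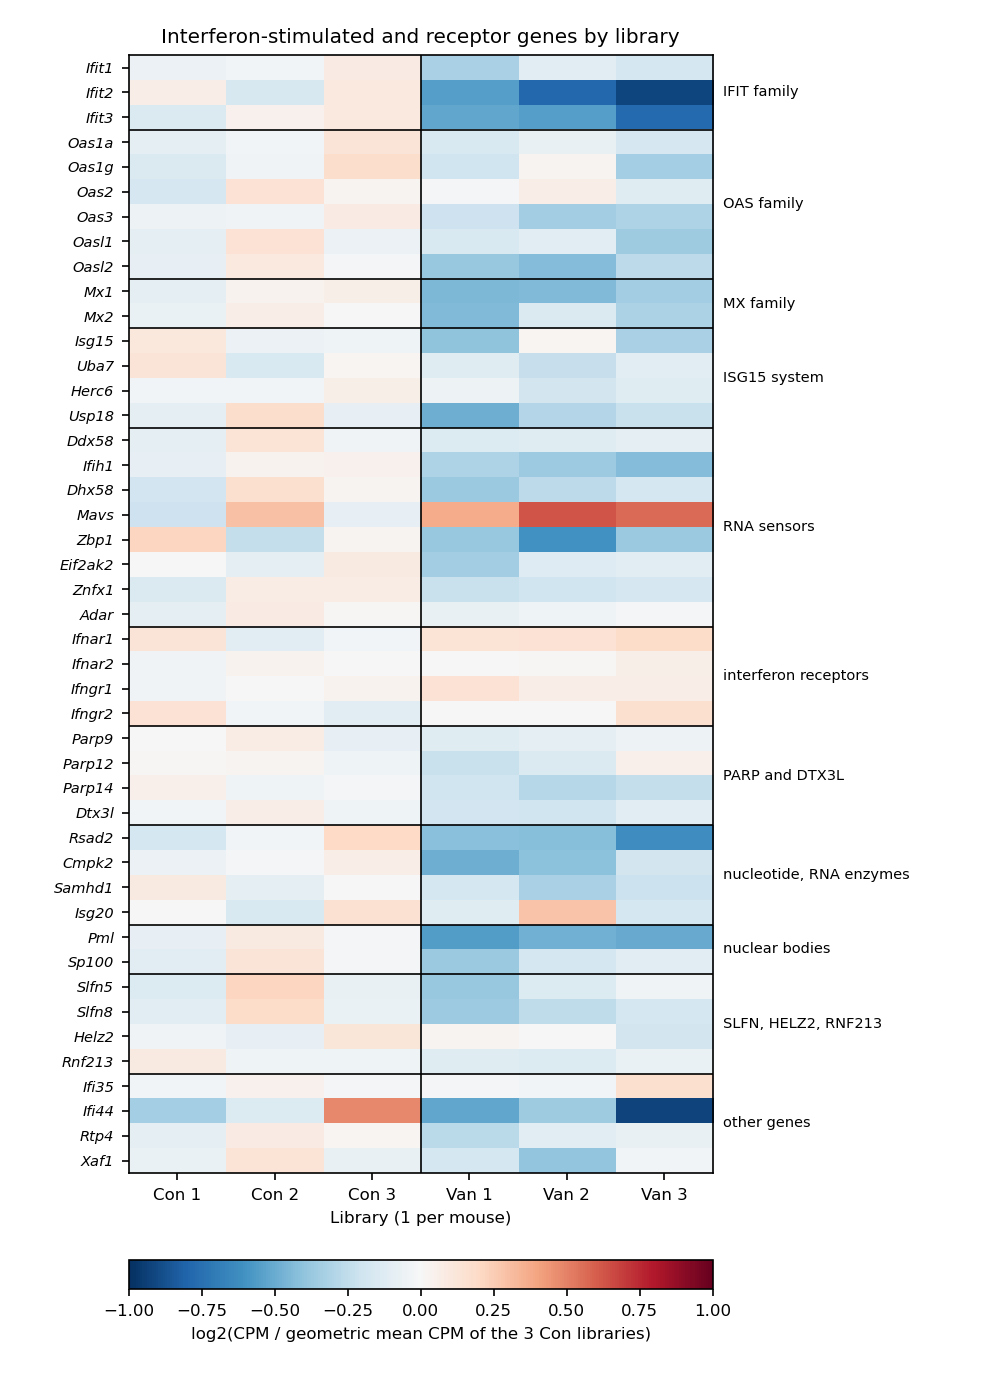
Heat map of log2 CPM of each of the 45 members (rows, ordered by functional group) in each of the 6 libraries (columns), relative to the member's mean in the 3 Con libraries; the colour scale runs from -1 to 1. The Van columns are mostly below 0, with medians of -0.21, -0.14 and -0.17, while the receptor rows and Mavs are mostly at or above 0.

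The libraries held 43.4M to 61.8M estimated counts. Their TMM factors lay between 0.990 and 1.01. Monocyte markers were high in all 6 libraries: Csf1r, the receptor of the growth factor that monocytes need, was at 2985 to 3619 CPM, and 6 nonclassical markers summed to 7683 to 8714 CPM in Con and 7681 to 10323 CPM in Van. The 7 classical markers summed to 6196 to 6411 CPM in Con and 5883 to 6377 CPM in Van, but among them Ccr2 fell (log2 fold change -0.83, adjusted p = 0.0283, edgeR) and Vcan rose (1.54, adjusted p = 0.0309, edgeR). In the 6 fits that each left out 1 library, Ccr2 was called in 2 and Vcan in 1. At an unadjusted p under 0.05, 3 of the 7 (Ccr2, Ly6c2 and Itgam) were lower and 1 was higher, and DESeq2 called 3, of which 2 were lower. The 7 erythroid markers were all higher in Van, 3 of them called, and summed to 42.1 to 84.1 CPM in Con and 137 to 296 CPM in Van. The 7 markers of plasmacytoid dendritic cells, the cells that make the most type I interferon, summed to 92.0 to 102 CPM in Con and 86.8 to 92.6 CPM in Van, most of it Tcf4; 5 of the 7 were lower in Van, 0 were called by edgeR, 3 had an unadjusted p under 0.05 and DESeq2 called 1. The more restricted Siglech was at 3.12, 3.75 and 2.89 CPM in the Con libraries and 1.503, 2.35 and 1.45 CPM in the Van libraries, with no overlap and an adjusted p of 0.113 in edgeR. Cox6a2 of the same list was higher in every Van library than in any Con library (0.37, adjusted p = 0.388, edgeR). Klk1 was also above 0, with overlapping groups (0.10, adjusted p = 0.954, edgeR). Of 7 conventional dendritic cell markers, which summed to 490.1 to 542 CPM in Con and 439 to 514 CPM in Van, Clec9a fell (-1.12, adjusted p = 0.0131, edgeR). Clec9a was called in 4 of the 6 fits that each left out 1 library. DESeq2 also called Xcr1 as lower (-0.85, adjusted p = 0.00837), while Flt3 was higher in every Van library than in any Con library (0.25, adjusted p = 0.230, edgeR). Of 6 NK cell markers, which summed to 26.1 to 39.4 CPM in Con and 14.9 to 21.9 CPM in Van, Klrk1 fell (-0.90, adjusted p = 0.0495, edgeR) while Ncr1 and Prf1 did not pass the filter. Klrk1 made up most of that sum and was called in 1 of the 6 fits that each left out 1 library. Klrb1c had a log2 fold change of 0.43 with overlapping groups (adjusted p = 0.706, edgeR). Red pulp macrophage markers summed to 2645 to 3155 CPM in Con and 3088 to 3939.6 CPM in Van, and all 6 had log2 fold changes above 0, with 0 called by edgeR, 3 at an unadjusted p under 0.05 and 1 called by DESeq2. B cell markers (17.5 to 20.6 CPM in Con and 14.3 to 17.1 CPM in Van), T cell markers (10.3 to 14.9 CPM in Con and 8.49 to 10.3 CPM in Van), neutrophil markers (38.0 to 62.9 CPM in Con and 34.9 to 91.1 CPM in Van, Ly6g at 0 throughout), platelet markers (15.6 to 31.4 CPM in Con and 13.6 to 18.9 CPM in Van) and plasma cell markers (351 to 392 CPM in Con and 352 to 381 CPM in Van) held no gene called by edgeR, with 0, 1, 1, 2 and 2 of them at an unadjusted p under 0.05 and 0, 0, 0, 0 and 1 called by DESeq2. Of all genes tested, edgeR called 2.00%, DESeq2 called 6.40%, and 16.5% had an unadjusted p under 0.05. The part of any of these cells in the members' values was not tested.

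The IFIT proteins bind viral RNA that lacks the host cap and hold it back from translation, and their genes lie together on chromosome 19 (GRCm38). Ifit2 (chr19:34550694-34576419, plus strand) was measured at 60.9, 52.0 and 62.4 CPM in the Con libraries and 39.8, 33.8 and 30.8 CPM in the Van libraries. Every Van library was below every Con library, and Ifit2 fell by 40.4% (log2 fold change -0.75, SE 0.11, adjusted p = 0.0200, edgeR), from 12.9 ± 1.36 FPKM to 7.73 ± 0.978 FPKM (SD, n = 3; FPKM scales for transcript length as well as library size, so it compares levels between genes). Ifit3 (chr19:34583531-34588731, plus strand), whose promoter with 2 matches is printed above, was at 52.7, 59.8 and 62.4 CPM in the Con libraries and 40.5, 39.7 and 33.9 CPM in the Van libraries. The groups again did not overlap, and Ifit3 fell by 34.7% (log2 fold change -0.62, SE 0.093, adjusted p = 0.0223, edgeR). Ifit3 shares near-identical sequence with Ifit3b, so its counts may hold reads of that gene. Ifit1 (chr19:34640871-34650009, plus strand) was at 16.6, 16.9 and 18.3 CPM in the Con libraries and 13.8, 15.9 and 15.3 CPM in the Van libraries, also without overlap but with a smaller difference (log2 fold change -0.20, SE 0.088, adjusted p = 0.298, edgeR).

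**Figure D2:**
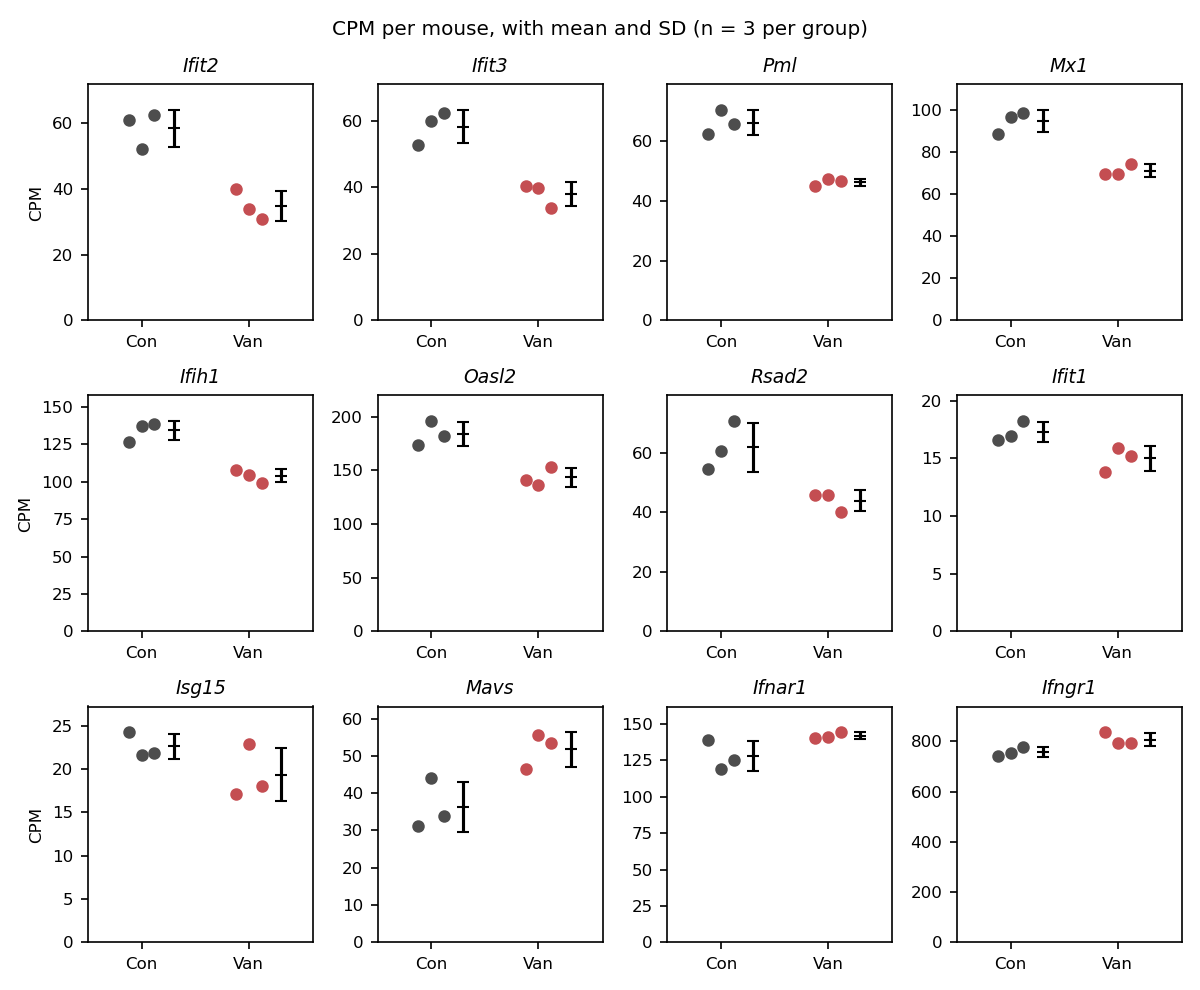
CPM (vertical axes, from 0) of 12 members in each library (points; 3 Con and 3 Van libraries), with the group mean and SD beside them. Ifit2 and Ifit3 lie between 30.8 and 40.5 CPM in Van and between 52.0 and 62.4 CPM in Con, without overlap.

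Many OAS proteins, though not all, make a short messenger from ATP when they meet double-stranded RNA, and that messenger activates RNase L. Of the 6 OAS genes on chromosome 5, all had a log2 fold change below 0, with a median of -0.19, and 3 did not overlap. Of all genes tested, 50.4% were below 0 and 11.0% had every Van library below every Con library. Oasl2 (chr5:114896936-114912234, plus strand), the OAS gene with the highest level at 55.3 ± 4.47 FPKM in Con, was at 174, 196 and 182 CPM in the Con libraries and 141, 136 and 153 CPM in the Van libraries. Its 3 Van values lay below all Con values and Oasl2 fell by 22.0% (log2 fold change -0.36, SE 0.069, adjusted p = 0.0416, edgeR). Oas3 was at 163, 165 and 179 CPM in the Con libraries and 146, 133 and 136 CPM in the Van libraries, without overlap and short of the threshold (log2 fold change -0.29, SE 0.064, adjusted p = 0.0621, edgeR), and DESeq2 called it at an adjusted p of 0.00340. The log2 fold changes of the other 4 lay between -0.21 and -0.024, with adjusted p-values of 0.360 to 0.933 in edgeR, and Oas1a and Oas1g are near-identical to each other.

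The MX proteins are dynamin-like GTPases that trap viral nucleocapsids. Mx1 (chr16:97447035-97462907, minus strand) was at 88.6, 96.8 and 98.8 CPM in the Con libraries and 69.4, 69.6 and 74.5 CPM in the Van libraries. No Van library reached a Con library, and Mx1 fell by 24.8% (log2 fold change -0.41, SE 0.065, adjusted p = 0.0259, edgeR), from 28.1 ± 2.099 FPKM to 20.8 ± 1.22 FPKM. Mx2 was at 27.0, 29.7 and 28.3 CPM in the Con libraries and 20.8, 25.7 and 22.7 CPM in the Van libraries, without overlap but not called (log2 fold change -0.30, SE 0.091, adjusted p = 0.147, edgeR). The MX genes share stretches of near-identical sequence.

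ISG15 is a ubiquitin-like protein that UBA7 activates, HERC6 attaches to other proteins and USP18 removes; USP18 also restrains signaling at IFNAR2. None of these 4 genes was called by edgeR, and 1 had an unadjusted p under 0.05, while DESeq2 called Usp18 alone, at an adjusted p of 0.0492. Isg15 itself was at 24.3, 21.6 and 21.9 CPM in the Con libraries and 17.1, 22.9 and 18.1 CPM in the Van libraries, and Van 2 lay among the Con libraries (log2 fold change -0.22, SE 0.12, adjusted p = 0.389, edgeR). Isg15 has a near-identical copy, AC151275.1, in the annotation. Usp18 was at 30.1, 36.4 and 30.4 CPM in the Con libraries and 23.0, 26.3 and 27.6 CPM in the Van libraries, without overlap (log2 fold change -0.33, SE 0.10, adjusted p = 0.148, edgeR). Uba7, the member of this system with the highest level (34.9 ± 3.63 FPKM in Con), was at 142, 117 and 131 CPM in the Con libraries and 119, 111 and 119.7 CPM in the Van libraries, with overlapping groups (log2 fold change -0.16, SE 0.079, adjusted p = 0.370, edgeR).

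The RNA sensors include the helicases RIG-I (Ddx58) and MDA5 (Ifih1), which recognise viral RNA and signal through MAVS on mitochondria. Of the 8 genes of sensors and partners, 7 had log2 fold changes below 0 and 1 above, and only Ifih1 was called by edgeR. Ifih1 (chr2:62595798-62646255, minus strand) was at 127, 137 and 138 CPM in the Con libraries and 108, 104 and 99.4 CPM in the Van libraries. The groups were apart and Ifih1 fell by 22.6% (log2 fold change -0.37, SE 0.062, adjusted p = 0.0300, edgeR). Ddx58 was at 96.1, 113 and 101 CPM in the Con libraries and 93.7, 94.6 and 96.5 CPM in the Van libraries, with Van 3 above Con 1 (log2 fold change -0.12, SE 0.071, adjusted p = 0.444, edgeR). Mavs, the adaptor, was at 31.1, 43.9 and 34.0 CPM in the Con libraries and 46.5, 55.5 and 53.3 CPM in the Van libraries, the opposite direction to Ifih1 and without overlap (log2 fold change 0.51, SE 0.13, adjusted p = 0.0903, edgeR), and DESeq2 called it at an adjusted p of 0.00407. Zbp1, a sensor of Z-form nucleic acid, was at 225, 164 and 197 CPM in the Con libraries and 149, 127 and 149.7 CPM in the Van libraries (log2 fold change -0.46, SE 0.11, adjusted p = 0.0849, edgeR) and at 78.3 ± 12.7 FPKM in Con, the highest level of the 8, and DESeq2 called it as lower at an adjusted p of 0.00242. Eif2ak2, which encodes the kinase PKR that stops translation, was at 89.9, 83.7 and 95.4 CPM in the Con libraries and 70.4, 82.0 and 82.6 CPM in the Van libraries (log2 fold change -0.19, SE 0.081, adjusted p = 0.281, edgeR). Znfx1, a helicase that senses viral RNA, was at 166, 192 and 192 CPM in the Con libraries and 157, 159.7 and 163 CPM in the Van libraries (log2 fold change -0.20, SE 0.069, adjusted p = 0.201, edgeR). Neither gene had overlapping groups, and neither was called.

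The interferon receptor genes differed in sign from most of the list: all 4 had log2 fold changes above 0, between 0.021 and 0.15, and none was called by edgeR or DESeq2 or had an unadjusted p under 0.05. Ifnar1 was at 139, 119 and 125 CPM in the Con libraries and 139.9, 141 and 145 CPM in the Van libraries (log2 fold change 0.15, SE 0.068, adjusted p = 0.317, edgeR) and Ifnar2 at 149, 156 and 152 CPM in the Con libraries and 152, 154 and 158 CPM in the Van libraries (log2 fold change 0.021, SE 0.052, adjusted p = 0.898, edgeR). Ifngr1, the receptor gene with the highest level (321 ± 12.9 FPKM in Con), was at 740.3, 754 and 777 CPM in the Con libraries and 838, 792 and 792 CPM in the Van libraries (log2 fold change 0.093, SE 0.052, adjusted p = 0.423, edgeR), and Ifngr2 at 159, 141 and 133 CPM in the Con libraries and 144, 144 and 161 CPM in the Van libraries (log2 fold change 0.053, SE 0.081, adjusted p = 0.820, edgeR). The Van libraries lay above all Con libraries for Ifnar1, by a narrow margin over Con 1, and for Ifngr1, and overlapped them for Ifnar2 and Ifngr2. Without these 4, the other 41 members had a median of -0.20.

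**Figure D3:**
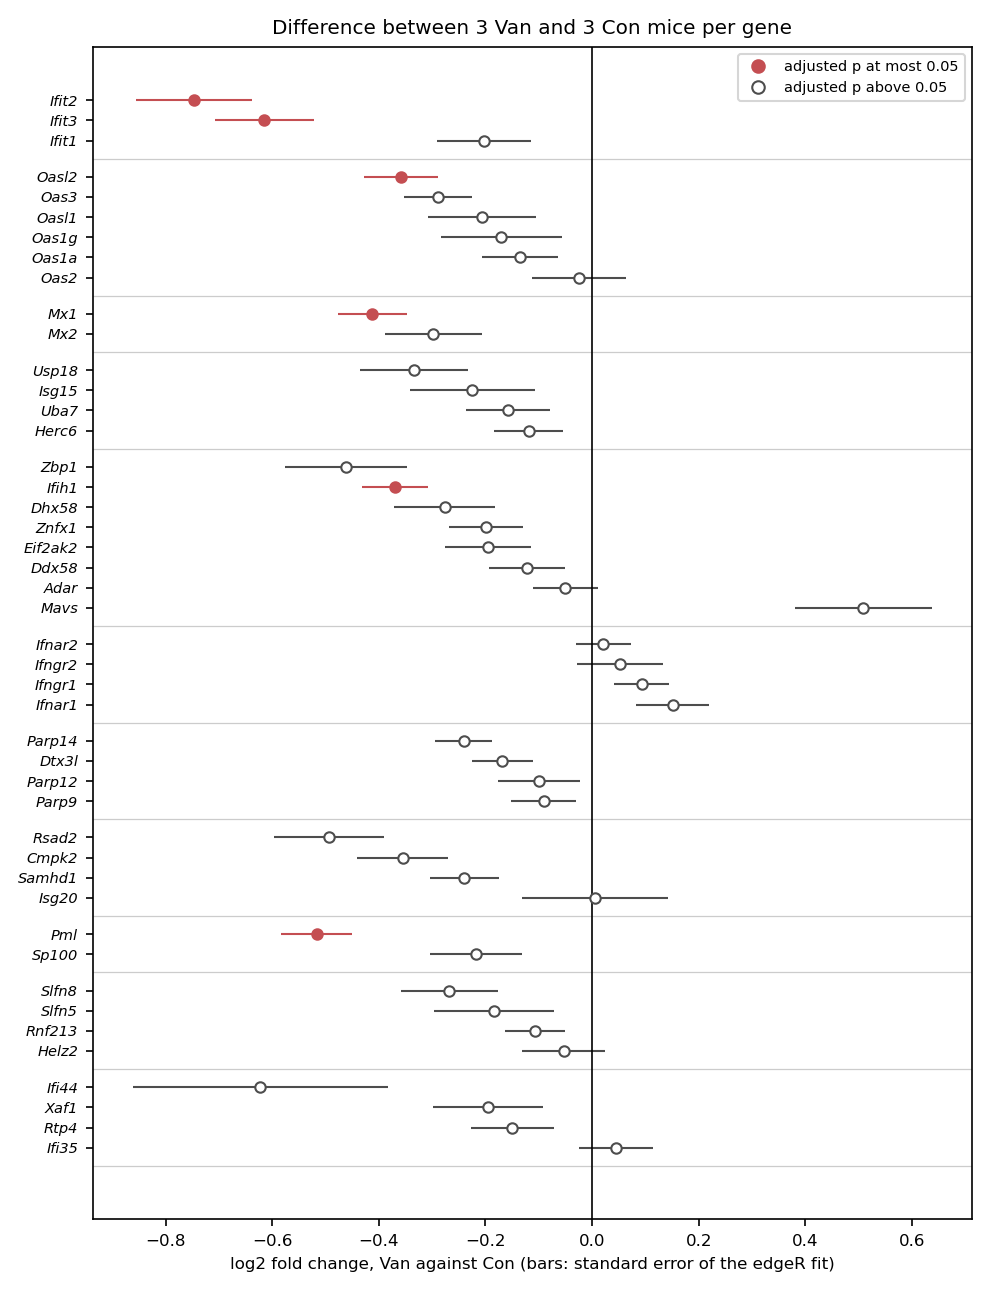
Log2 fold change of Van over Con for the 45 members, grouped by function (horizontal axis; points, with bars for the SE; filled points were called by edgeR). The 6 called members lie between -0.75 and -0.36, and the 4 receptors lie above 0.

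Of the 4 enzymes that act on nucleotides and RNA, 3 had log2 fold changes below 0. Rsad2 (viperin), which turns CTP into a chain terminator, was at 54.4, 60.5 and 70.7 CPM in the Con libraries and 45.9, 45.8 and 39.97 CPM in the Van libraries, without overlap and just above the threshold (log2 fold change -0.49, SE 0.10, adjusted p = 0.0537, edgeR). Cmpk2, its neighbour, was at 66.5, 68.6 and 72.6 CPM in the Con libraries and 49.3, 52.2 and 60.8 CPM in the Van libraries (log2 fold change -0.36, SE 0.086, adjusted p = 0.0777, edgeR). Samhd1, which degrades deoxynucleotides, was the most highly expressed of the 45 at 572 ± 42.4 FPKM in Con and was at 2151, 1898 and 2037 CPM in the Con libraries and 1794, 1619 and 1742 CPM in the Van libraries (log2 fold change -0.24, SE 0.065, adjusted p = 0.109, edgeR). DESeq2 called Rsad2, Cmpk2 and Samhd1, at adjusted p-values of 6.9e-04, 0.00563 and 0.0179.

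Pml organises nuclear bodies in which many antiviral factors gather, and Pml (chr9:58218076-58249786, minus strand) had the smallest adjusted p of the members. It was at 62.4, 70.6 and 65.8 CPM in the Con libraries and 45.0, 47.3 and 46.7 CPM in the Van libraries. The 3 Van values lay below the 3 Con values by more than the spread within either group, and Pml fell by 30.1% (log2 fold change -0.52, SE 0.066, adjusted p = 0.0131, edgeR), from 14.3 ± 0.937 FPKM to 10.4 ± 0.664 FPKM. Sp100, its partner in these bodies, was at 345, 408 and 369 CPM in the Con libraries and 288, 329.7 and 346 CPM in the Van libraries, with Van 3 above Con 1 (log2 fold change -0.22, SE 0.086, adjusted p = 0.256, edgeR).

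Of the PARP and DTX3L genes, which add ADP-ribose to proteins or ubiquitin to histones, Parp14 was at 405, 381 and 388.1 CPM in the Con libraries and 342, 321 and 331 CPM in the Van libraries (log2 fold change -0.24, SE 0.053, adjusted p = 0.0621, edgeR) and was called by DESeq2. Dtx3l was at 174, 187 and 173 CPM in the Con libraries and 156, 155 and 164 CPM in the Van libraries (log2 fold change -0.17, SE 0.057, adjusted p = 0.190, edgeR), and its exons overlap those of Parp9 on the opposite strand. Strand use in the counting is not given, and exons of Oasl1, Usp18, Dhx58, Eif2ak2, Znfx1, Adar, Pml, Slfn5, Rnf213 and Ifi35 also overlap an antisense gene. Uba7, Herc6, Ifnar2, Parp14, Sp100 and Rtp4 overlap another annotated gene on their own strand, and Sp100 has near-identical copies. Parp9 and Parp12 were at log2 fold changes of -0.091 and -0.10. Of the schlafen genes and large helicases or ligases, Slfn8 was at 77.5, 95.4 and 80.3 CPM in the Con libraries and 65.3, 70.6 and 74.5 CPM in the Van libraries, without overlap (log2 fold change -0.27, SE 0.091, adjusted p = 0.191, edgeR), and it shares near-identical sequence with Slfn9. Slfn5, the highest of that group at 68.6 ± 9.13 FPKM in Con, was at 287, 367 and 300.0 CPM in the Con libraries and 243, 288 and 309 CPM in the Van libraries (log2 fold change -0.18, SE 0.11, adjusted p = 0.477, edgeR). Of the remaining 4 genes, Ifi44 had the lowest level of the 45 (1.91 ± 0.563 FPKM in Con) and was at 4.88, 5.603 and 8.599 CPM in the Con libraries and 4.30, 4.82 and 3.25 CPM in the Van libraries, without overlap and with a wide error (log2 fold change -0.62, SE 0.24, adjusted p = 0.243, edgeR). Ifi35, the highest of them at 34.2 ± 0.839 FPKM in Con, was at 51.7, 54.3 and 52.1 CPM in the Con libraries and 52.4, 51.8 and 58.9 CPM in the Van libraries (log2 fold change 0.045, SE 0.070, adjusted p = 0.821, edgeR).

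The rest of the interferon pathway was read from a list of 85 genes, of which 67 were tested, 16 did not pass the filter and 2 had no row. This list too was chosen with earlier results of these data known. Most ligands were at or near 0: of 17, 14 were at 0 in every library, and Ifnb1 and Ifna9 reached at most 2.65 and 1.91 estimated counts in a library. Ifnk was the ligand that passed the filter, at 0.463, 0 and 1.02 CPM in the Con libraries and 0.425, 0.353 and 0.550 CPM in the Van libraries, with overlapping groups (log2 fold change -0.12, SE 1.00, adjusted p = 0.969, edgeR). Among the 67, 55 had log2 fold changes below 0 and 12 above, with a median of -0.20, and 6 were called by edgeR, all lower in Van. Of all genes tested, 50.4% were below 0, 2.00% were called and 0.917% were called as lower. Aim2, a DNA sensor that starts an inflammasome, fell by 26.1% (log2 fold change -0.44, SE 0.065, adjusted p = 0.0223, edgeR), Ddx60 by 37.5% (log2 fold change -0.68, SE 0.094, adjusted p = 0.0170, edgeR), and Ifi203 by 34.4% (log2 fold change -0.61, SE 0.077, adjusted p = 0.0131, edgeR). Phf11b fell by 35.8% (log2 fold change -0.64, SE 0.12, adjusted p = 0.0388, edgeR) and Ifit3b, the near-identical neighbour of Ifit3, by 29.0% (log2 fold change -0.49, SE 0.080, adjusted p = 0.0283, edgeR). Ccl12, a chemokine, was at 15 to 18 estimated counts in each Con library and at 0 in each Van library, at least 6.17-fold lower against a floor of 3 counts per library (adjusted p = 0.0337, edgeR). Rescaling to fragments multiplies estimated counts by 0.375, so Ccl12 lay near the floor in Con as well. Oas1c lay at the threshold without reaching it (log2 fold change -0.81, SE 0.17, adjusted p = 0.05001, edgeR), and Cxcl9, a chemokine induced by interferon gamma, overlapped (log2 fold change -0.69, SE 0.30, adjusted p = 0.298, edgeR).

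None of the factors that carry the signal was called. Stat2 was at 175, 152 and 159.6 CPM in the Con libraries and 130.4, 128 and 143 CPM in the Van libraries, without overlap (log2 fold change -0.27, SE 0.073, adjusted p = 0.104, edgeR). Irf9, which binds DNA together with STAT2, was at 128, 122 and 118 CPM in the Con libraries and 126, 126 and 132 CPM in the Van libraries, with overlapping groups (log2 fold change 0.061, SE 0.057, adjusted p = 0.669, edgeR). Irf7, which amplifies the production of interferon, was at 242, 244 and 260.0 CPM in the Con libraries and 222, 210.0 and 223 CPM in the Van libraries, without overlap (log2 fold change -0.19, SE 0.056, adjusted p = 0.136, edgeR). Of the 10 receptor kinases and transcription factors, 5 were below 0 and none was called by edgeR, with 4 at an unadjusted p under 0.05 and 2 called by DESeq2. Of 8 inhibitors, 6 were below 0 and none was called by either, with 3 at an unadjusted p under 0.05. Of 9 genes of DNA sensing and induction, 7 were below 0 and Aim2 was called, and of 39 further interferon-stimulated genes tested, 36 were below 0 and 5 were called. Of all genes tested, 16.5% had an unadjusted p under 0.05 and DESeq2 called 6.40%.

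**Figure D4:**
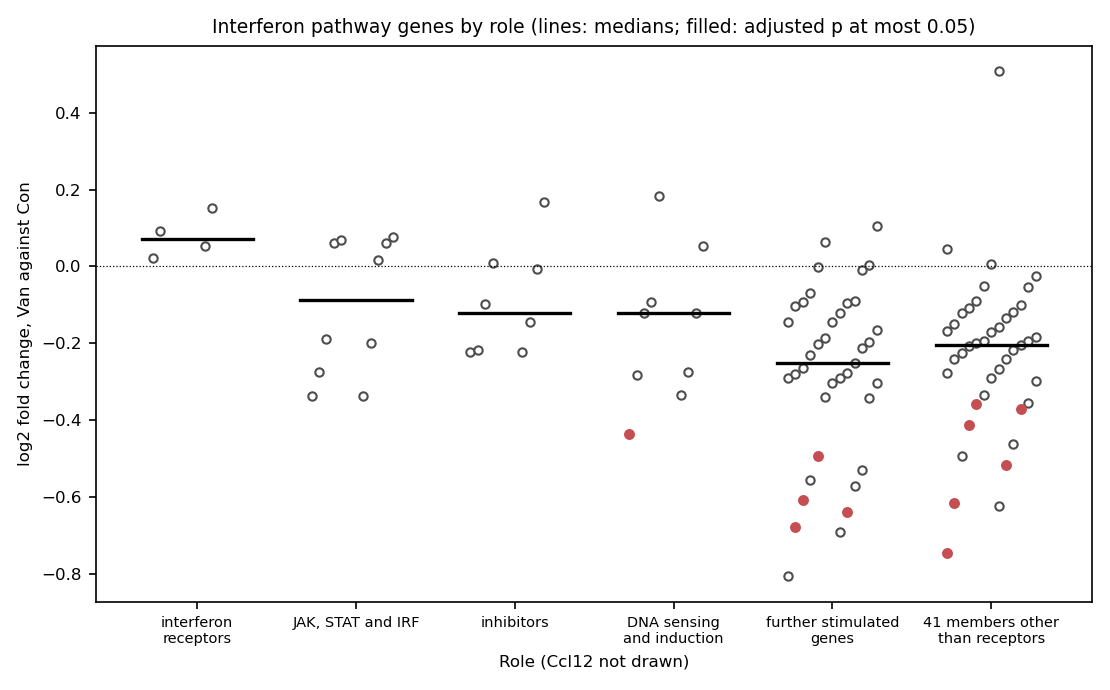
Log2 fold change of Van over Con (vertical axis) for the 45 members, as receptors and others, and for the tested genes of the wider pathway by role, without ligands; lines are medians, filled points were called by edgeR, and Ccl12, with no count in Van, is in its median but not drawn. The 39 further interferon-stimulated genes have a median of -0.25, the 10 kinases and transcription factors one of -0.086, and the 4 receptors lie above 0.

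The 6 calls rested on few mice. Leaving out each library in turn, Pml stayed called in 3 of the 6 fits, Ifit2 and Ifit3 in 2 each, Mx1 and Ifih1 in 1 each and Oasl2 in 0 (adjusted p 0.0641 to 0.175, edgeR), while each of the 6 stayed below 0 in every fit. No member was called without Con 3 or without Van 2, where 17 and 22 members had an unadjusted p under 0.05. Those fits called few genes of any kind, 22 of 16688 and 21 of 16758 tested, with 2169 and 2000 at an unadjusted p under 0.05. With the replicate number as a block, 2 members were called (Ifit2 and Pml), of 110 genes in all, and limma on log2(FPKM + 1) called 21 genes and 0 members, with 22 members and 2510 of 16138 genes at an unadjusted p under 0.05.

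**Figure D5:**
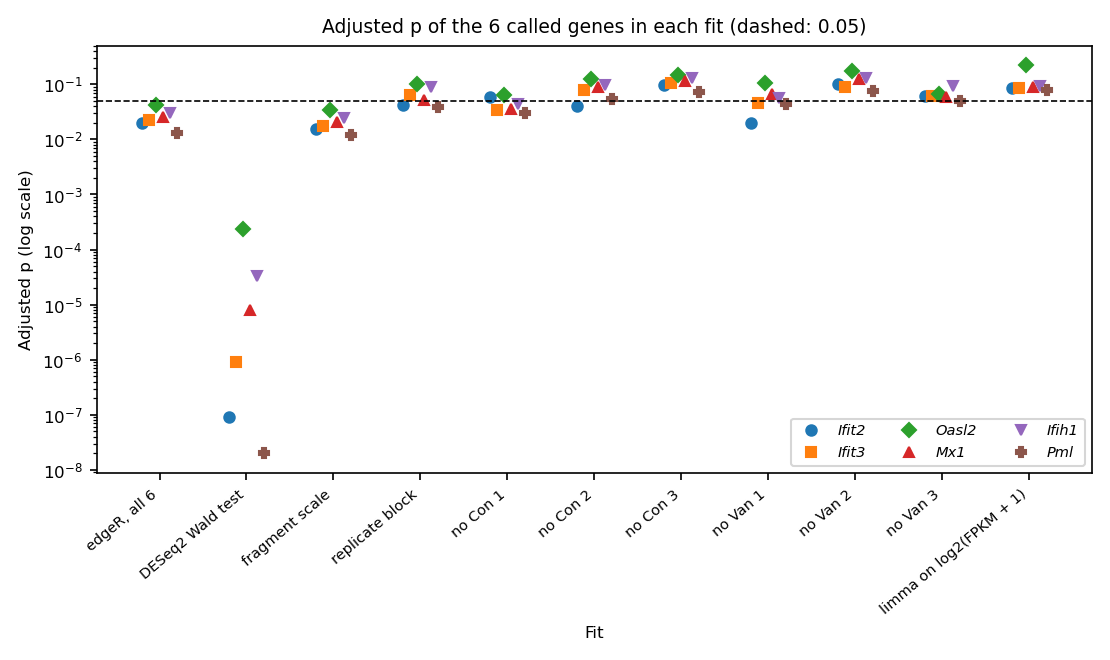
Adjusted p (vertical log axis; the dashed line marks 0.05) of the 6 called members in edgeR with all 6 libraries, in 4 alternative fits and with each library left out. All 6 lie below the line in edgeR, DESeq2 and the fragment scale, 2 with the replicate block and 0 in limma, where 22 of the 45 members had an unadjusted p under 0.05.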

How the data were processed

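Splenic monocyte mRNA, poly-A selected, was sequenced from stranded libraries, 3 of Con and 3 of Van mice. Per the submitters' processing notes, the authors aligned reads to GRCm38 with HISAT2 2.2.1 and used SAMtools 1.9 and StringTie 2.1.3. The deposited FPKM values came from StringTie with Ballgown and are scaled to transcript length and library size. The authors converted them to the deposited estimated counts with tximport. The annotation release and the settings for strand and multi-mapped reads are not given in the sources used here.

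These expected counts, rounded to integers, were tested in R 4.3.3 with edgeR 4.0.16 (TMM, an expression filter at a minimum count of 10, quasi-likelihood test, group as the only term), with Benjamini-Hochberg adjustment over all genes tested. Called genes had an adjusted p of 0.05 or less. Alternatives were DESeq2 1.42.0, limma 3.58.1 on FPKM after quantile normalization, as log2(FPKM + 1) and as log2(FPKM + 0.1), other scalings and filters, the replicate number as a block, 1 identifier per symbol, counts rescaled to fragments (assuming that the conversion took reads as 75 bases long, which is not given in the sources used here), and each library left out in turn. The scripts were tested on simulated data.

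The members and lists were chosen with earlier results of these data known. Full values are given for called members, members with an unadjusted p under 0.05 and no overlap, the largest change and the highest FPKM of each functional group, the receptors, Ddx58, Ifih1, Mavs, Isg15, Usp18, the MX and IFIT genes and, of the pathway list, called genes, the 3 largest changes, Stat2, Irf9 and Irf7; 1 further gene of that rule is not reported here. Coordinates are from GENCODE M21 (GRCm38), and promoters from RefSeq. Near-identical copies match over at least 200 bases at 95% identity. The libraries held 43.4M to 61.8M estimated counts, which are not whole reads, so counting intervals were not made. P-values measure the spread between 3 mice a group.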

Additional observations from a re-analysis of the deposited data

How the results depend on the processing

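The count of genes called by edgeR was 322, and other scalings and filters gave 320 to 391. DESeq2 called 1033, limma 21 on log2(FPKM + 1), 4 on log2(FPKM + 0.1) and 24 with no filter. For the 45 members, 6 were called. DESeq2 called 14, and limma called 0 in all 3 forms, where 22, 21 and 25 members had an unadjusted p under 0.05, as did 2510 of 16138, 2308 of 16138 and 2989 of 24194 genes tested. Of the pathway list, 6 were called by edgeR, 14 by DESeq2, and 0, 1 and 0 by the 3 forms of limma. Rsad2 was also called with no filter, with at least 10 counts in every library and on the fragment scale. The cause of these differences was not tested.

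With the replicate number as a block, 110 genes, 2 members and 1 gene of the pathway list were called. Deviations of same-numbered libraries from their group means correlated across genes at 0.0253, -0.0019 and -0.0726. Not every library correlated best with its own number. The deviations within a group are tied by their shared mean, so these values cannot decide whether the numbers pair the mice. The block turned the log2 fold change of Isg20 to -0.0040.

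Leaving out 1 library gave 21 to 136 genes called, 0 to 4 members, 0 to 3 pathway genes and a median of the members between -0.22 and -0.15. The members called were 4, 1 and 0 without Con 1, Con 2 and Con 3, and 3, 0 and 1 without Van 1, Van 2 and Van 3. Signs turned for uncalled members near 0: Adar in limma (0.0069 on log2(FPKM + 1) with or without the filter, 0.0071 on log2(FPKM + 0.1)), Oas2 without Con 2 or Van 3 (range -0.11 to 0.050), Isg20 without Con 2 or Van 2 (-0.15 to 0.090), Helz2 without Con 3 or Van 3 (-0.095 to 0.011), Ifngr2 without Van 3 (-0.0035 to 0.13) and Ifi35 without Van 3 (-0.017 to 0.080).

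Of the 17 interferon ligands, 16 were too near 0 to test at this depth, and Ifi44 had the lowest level of the members.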

Other observations

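A few genes known to respond to interferon gamma were higher in Con 1 than in any other library. They were chosen after their values were seen, so they do not describe such genes as a group. Irf1, a transcription factor, was at 529, 286 and 308 CPM in the Con libraries and 340.5, 275 and 273 CPM in the Van libraries. The chemokine Cxcl9 was at 52.3, 22.2 and 27.6 CPM in the Con libraries and 26.2, 20.2 and 16.7 CPM in the Van libraries, and Cxcl10 at 45.6, 21.4 and 21.1 CPM in the Con libraries and 23.4, 20.7 and 15.2 CPM in the Van libraries. The GTPase Igtp was at 77.3, 48.6 and 46.6 CPM in the Con libraries and 48.3, 40.6 and 50.8 CPM in the Van libraries, and the peptide transporter Tap1 at 376, 257 and 278 CPM in the Con libraries and 276, 209.6 and 233 CPM in the Van libraries. The median of the 45 members in Con 1 was -0.063 relative to the Con mean, below Con 2 and Con 3. Among the Con libraries, 8 members were highest in Con 1 (Isg15, Uba7, Zbp1, Ifnar1, Ifngr2, Parp14, Samhd1 and Rnf213), 21 in Con 2 and 16 in Con 3. Without Con 1, the log2 fold change was -0.0054 for Irf1, -0.24 for Cxcl9, -0.11 for Cxcl10, -0.033 for Igtp and -0.16 for Tap1, while the median of the members was -0.22.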
